A study of Mus musculus with 3 samples.

Results

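Expression of 33 genes of B cell identity and B cell receptor signalling was followed across 3 splenic tumours. The genes were taken from a list by name, 16 acting at the cell surface, 10 in signalling or elsewhere inside the cell and 7 in transcription. All 33 of 33 had at least 1 probe named through its RefSeq transcript, among 22908 named genes on the array. All 33 were well above background on every array, so none was lost among the 15240 genes tested.

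Each tumour came from a male mouse, with no mention of pooled animals, and was measured on 1 one-colour Agilent expression array. All 3 animals carried the p53+/- genotype, a heterozygous state of the tumour suppressor p53. The animal with that genotype alone gave 1 tumour (here the p53-only tumour). The LSD1 x p53+/- genotype gave 2 tumours, numbered 2 and 3 in the labels (here tumours L2 and L3, together the LSD1 tumours). The labels do not say how LSD1, a histone demethylase, was altered, in which cells, or whether the numbers stand for mice or for lines. The growth protocol speaks of spleen cells from animals aged 10 weeks and the tissue label of a splenic tumour, with no treatment given. The comparison asks how B cell gene expression differs between tumours with and without the LSD1 element. With 1 tumour on one side, any genotype difference rests on that animal. The p-values draw only on the spread between tumours L2 and L3 and on a prior from all genes. The p53-only tumour adds no spread of its own.

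B cells sense antigen through a membrane immunoglobulin joined to the CD79A and CD79B chains. Src family kinases such as LYN and BLK start the signal, SYK amplifies it, and the adaptor BLNK and the kinase BTK pass it on, while surface lectins such as CD22 damp it. The transcription factors EBF1 and PAX5 establish and hold B cell identity. In the normal spleen these genes mark the B cells of follicles and of the marginal zone.

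Each value below is the processed signal of a gene's brightest probe divided by the 75th percentile of its array, called signal units. Levels of different genes come from different probes and are not set against each other. The share of spots well above background was between 51.5% and 55.6%, and no spot was saturated. The p53-only tumour and tumour L3 shared a slide and a scan, while tumour L2 came from another slide and another scan. The within-slide comparison is therefore tumour L3 against the p53-only tumour, and for tumour L2 the tumour and the slide cannot be told apart.

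B cell genes were lower in both LSD1 tumours, by more in tumour L2. Of the 33 genes, 30 were at least 2-fold lower in tumour L2 than in the p53-only tumour, where 11.5% of all tested genes were. In tumour L3 the number was 10 of 33, again beside 11.5% of all genes. These 10 were also among the 30, so 10 genes were at least 2-fold lower in L2 and in L3 alike, where 5.38% of all genes were, and 0 of 33 were at least 2-fold higher in either (11.7% of all genes in tumour L2, 15.2% in tumour L3 and 3.48% in both). At any size, 32 of 33 were lower in tumour L2 (47.0% of all genes), 31 of 33 in tumour L3 (41.9%) and 31 of 33 in both (27.8%). With arrays scaled to their median, which moves the median of all genes by 0.20 in tumour L3, the number lower there was 26 of 33. The median log2 difference of the 33 genes was -2.02 in tumour L2 and -0.64 in tumour L3, beside 0.05 and 0.16 for all tested genes. Relative to all genes these medians were -2.08 and -0.80. Both comparisons share the p53 array. In the authors' deposited value table, which scales the arrays differently and moves the median of all genes by -0.21 and -0.36, the numbers at least 2-fold lower were 31 in tumour L2, 17 in tumour L3 and 16 in both. In these bulk samples fewer B cells and less RNA per B cell cannot be told apart.

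**Figure D1:**
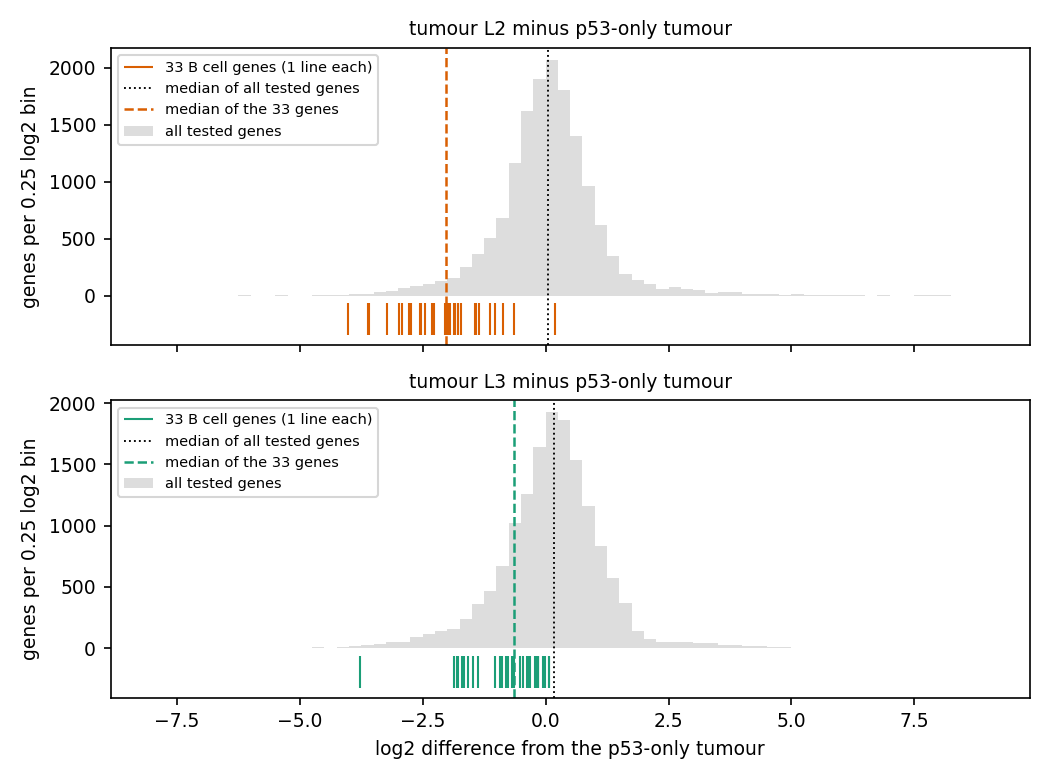
Histograms of the log2 difference from the p53-only tumour for all 15240 tested genes (grey), with 1 coloured line for each of the 33 B cell genes, for tumour L2 (top) and tumour L3 (bottom). The dashed line is the median of the 33 genes (-2.02 and -0.64) and the dotted line that of all tested genes (0.05 and 0.16).

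The 3 tumours fell into 1 order for most of the genes. The p53-only tumour was highest, tumour L3 next and tumour L2 lowest for 28 of 33 genes, beside 14.3% of all tested genes. This count includes differences near 0. With arrays scaled to their median, tumour L3 exceeded the p53-only tumour for 5 of the 28, namely Ms4a1, Tnfrsf13c, Ly6d, Lyn and Vpreb3. The 5 exceptions were Fcrl1, Fcrl5, Cd83, Cd40 and Pou2af1. Across the genotypes no gene passed limma's threshold (0 of 33 members and 0 of 15240 genes at an adjusted p of 0.05). The lowest adjusted p among the 33 was 0.967. Without adjustment 5 of 33 had a limma p under 0.05, beside 3.73% of all genes, and these were Cd22, Bank1, Ralgps2, Ebf1 and Bach2.

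**Figure D2:**
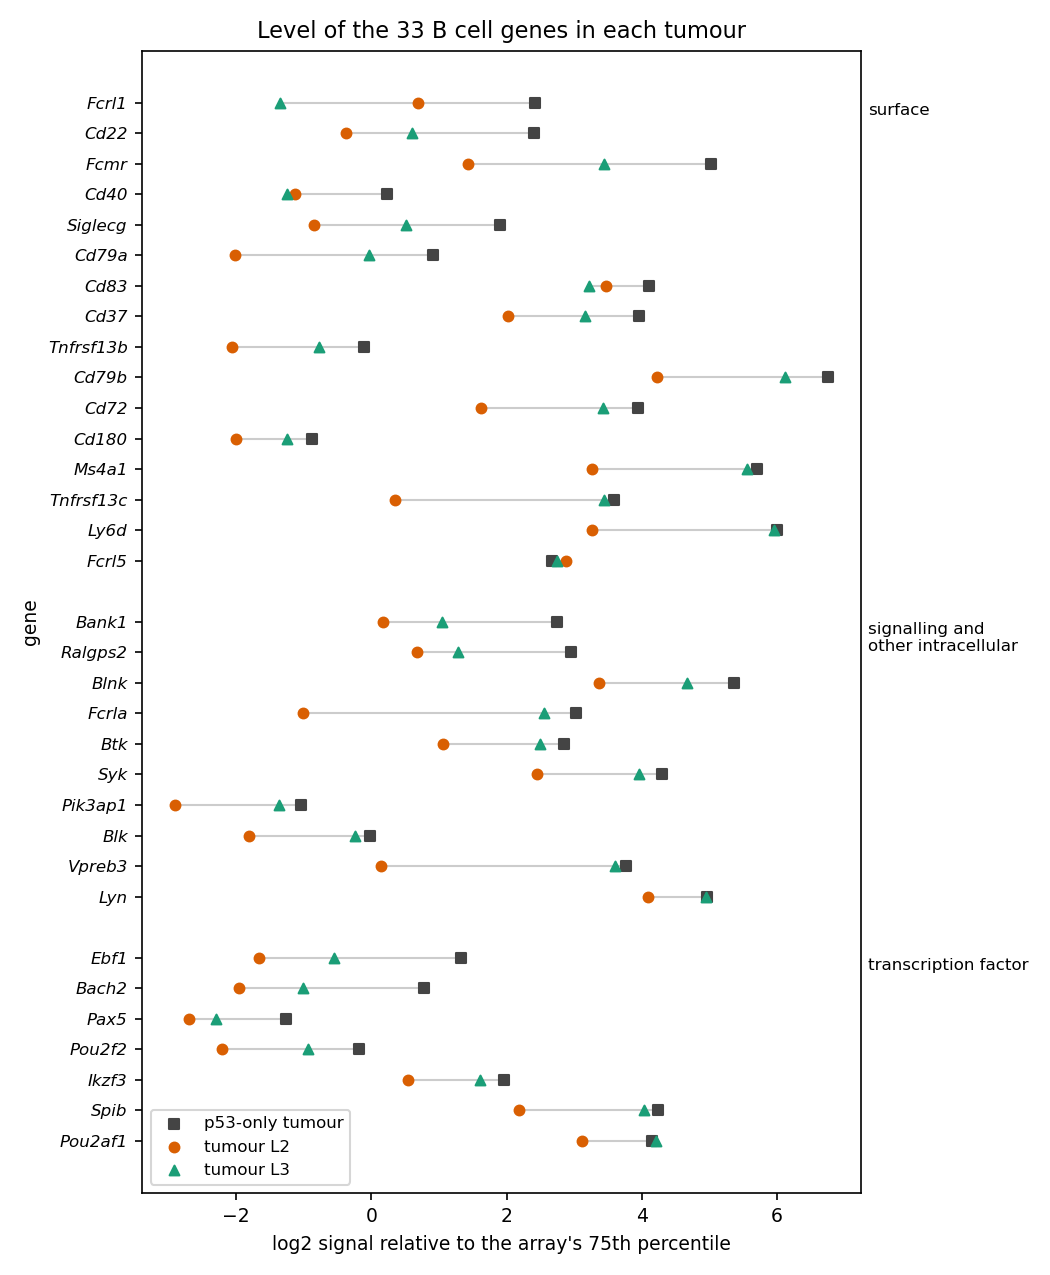
Log2 signal relative to the array's 75th percentile for each of the 33 genes (rows, grouped by role and ordered by the difference between tumour L3 and the p53-only tumour), with 1 point for each tumour. For 28 of the 33 genes the p53-only tumour lies furthest right and tumour L2 furthest left.

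The chains of the receptor complex were lower in both LSD1 tumours. Cd79b, which encodes a signalling chain of the receptor, stood at 108 signal units in the p53-only tumour, 18.7 in tumour L2 and 69.4 in tumour L3. That is 5.80-fold lower in tumour L2 and 1.56-fold lower in tumour L3. Cd79a, its partner chain, stood at 1.88, 0.248 and 0.979 in the same order, 7.57-fold and 1.92-fold lower. Both chains thus ranked the 3 tumours alike. The mean log2 difference between the genotypes was -1.59 ± 1.02 (SE) for Cd79b and -1.93 ± 1.06 for Cd79a (n = 2 against 1, limma adjusted p = 0.967 for each).

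Among the surface genes, Ms4a1, Ly6d and Tnfrsf13c were close to the p53 level in tumour L3 by this scaling. Others were not, with Cd79b 1.56-fold, Cd37 1.74-fold, Cd79a 1.92-fold and Cd22 3.50-fold lower there. Ms4a1, which encodes CD20, was at 52.3 signal units in the p53-only tumour, 9.56 in tumour L2 and 47.1 in tumour L3, so that tumour L2 alone was low. Ly6d, a surface protein of B lineage cells, was at 64.3, 9.56 and 61.9. Tnfrsf13c, the receptor for the survival factor BAFF, was at 12.0, 1.28 and 10.8. In tumour L2 these 3 genes were 5.48-fold, 6.73-fold and 9.40-fold lower than in the p53-only tumour. In tumour L3 they differed by -0.15, -0.05 and -0.15 log2 units, a direction that turned when arrays were scaled to their median (0.04, 0.14 and 0.05). Tnfrsf13b, the receptor TACI for BAFF and APRIL, was at 0.931, 0.239 and 0.586, 3.89-fold and 1.59-fold lower. The BAFF gene itself, Tnfsf13b, was at 0.239, 0.334 and 0.275.

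Other surface genes were low in both LSD1 tumours. Cd22, an inhibitory lectin of the receptor, was at 5.28 signal units in the p53-only tumour, 0.770 in tumour L2 and 1.51 in tumour L3, 6.86-fold and 3.50-fold lower (mean log2 difference -2.29 ± 0.67, SE, limma adjusted p = 0.967). Siglecg, a related inhibitory lectin, was at 3.72, 0.552 and 1.42, 6.74-fold and 2.61-fold lower. Fcmr, the Fc receptor for IgM, was at 32.4, 2.70 and 10.9, and had the largest genotype difference but 1 among the surface genes (-2.58 ± 1.07). The first in that order was Fcrl1, an Fc receptor-like protein of B cells, at 5.36, 1.62 and 0.392 (-2.75 ± 1.09). Fcrl1 was 3.31-fold lower in tumour L2 and 13.7-fold lower in tumour L3. It was the 1 gene of the 33 at least 2-fold lower in tumour L3 than in tumour L2, beside 11.1% of all tested genes. All 3 of its probes gave the same order of tumours, with differences in tumour L3 between -3.82 and -3.54 log2 units. Cd40, the receptor for help from T cells, was at 1.17, 0.459 and 0.421, 2.56-fold and 2.79-fold lower, and did not separate the LSD1 tumours (-0.12 log2 units between them).

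The remaining surface genes lay between these patterns. Cd72, an inhibitory coreceptor, was at 15.4, 3.09 and 10.7 signal units in the p53-only tumour and tumours L2 and L3. Cd37, a tetraspanin of B cells and other leukocytes, was at 15.6, 4.07 and 8.96, and Cd180, a Toll-like receptor homologue, at 0.545, 0.249 and 0.421. These 3 genes were at least 2-fold lower in tumour L2 alone by this scaling. Cd83, an activation marker also made by dendritic cells, was at 17.2, 11.0 and 9.30, within 2-fold throughout by this scaling. Fcrl5, an Fc receptor-like protein of innate-like B cells, was the 1 gene of the 33 with no lower level in tumour L2, at 6.38, 7.32 and 6.72. Its difference of 0.20 log2 units in tumour L2 and 0.07 in tumour L3 turned in the authors' deposited value table (-0.02 and -0.29). Its other 2 probes were not above background in tumour L2 or tumour L3, and 1 of them was above it in the p53-only tumour, with measured differences of -3.03 and -0.74 log2 units that rest on background-level signals in the LSD1 tumours.

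The receptor's kinases and adaptors were mostly more than 3-fold lower in tumour L2 and, apart from Bank1, within 2-fold of the p53-only tumour in tumour L3. Syk, the kinase that binds the phosphorylated receptor chains, was at 19.6 signal units in the p53-only tumour, 5.48 in tumour L2 and 15.6 in tumour L3. Btk, the kinase that activates phospholipase C, was at 7.19, 2.09 and 5.61, and Blnk, the adaptor that joins the kinases, at 41.2, 10.3 and 25.5. These 3 genes were 3.59-fold, 3.44-fold and 3.98-fold lower in tumour L2, and 1.26-fold, 1.28-fold and 1.62-fold lower in tumour L3. Among the Src family kinases, Blk was at 0.981, 0.284 and 0.847. Lyn, which myeloid cells also express, was at 31.1, 17.0 and 30.9, and was within 2-fold of the p53-only tumour in both. In tumour L3 Lyn differed by -0.01 log2 units, or 0.19 when arrays were scaled to their median. Pik3ap1, an adaptor for phosphoinositide 3-kinase, was at 0.485, 0.133 and 0.387.

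A pair of signalling genes departed from this pattern. Bank1, a scaffold that binds LYN, was at 6.68 signal units in the p53-only tumour, 1.13 in tumour L2 and 2.06 in tumour L3, 5.92-fold and 3.25-fold lower (mean log2 difference -2.13 ± 0.63, SE, limma adjusted p = 0.967). Ralgps2, an exchange factor for Ral GTPases, was at 7.72, 1.60 and 2.43, 4.82-fold and 3.17-fold lower. By its other 2 probes Ralgps2 was lower by less, between -1.31 and -1.25 log2 units in tumour L2 and between -0.54 and -0.43 in tumour L3.

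The widest gaps between the LSD1 tumours were in Fcrla and Vpreb3. Fcrla, an intracellular Fc receptor-like protein, was at 8.12 signal units in the p53-only tumour, 0.498 in tumour L2 and 5.87 in tumour L3. Vpreb3, a relative of the surrogate light chain, was at 13.5, 1.1 and 12.2. Tumour L3 exceeded tumour L2 by 11.8-fold for Fcrla and 11.0-fold for Vpreb3, with Tnfrsf13c next at 8.47-fold. In all, 22 of 33 genes were at least 2-fold lower in tumour L2 than in tumour L3, beside 14.0% of all tested genes. Each LSD1 tumour is 1 array, on a different slide from the other, so this difference has no replicate check.

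Among the transcription factors, the gap was wide in both tumours for Ebf1 and Bach2. By this scaling it was seen in tumour L2 but not in tumour L3 for Spib and Pou2af1. Ebf1, the factor that specifies the B lineage, was at 2.51 signal units in the p53-only tumour, 0.317 in tumour L2 and 0.684 in tumour L3, 7.90-fold and 3.66-fold lower (mean log2 difference -2.43 ± 0.71, SE, limma adjusted p = 0.967). Its other probe gave -3.0 and -1.80 log2 units. Bach2, a repressor that holds back plasma cell differentiation, was at 1.71, 0.257 and 0.496, 6.67-fold and 3.46-fold lower. Pax5, the factor that maintains B cell identity, was at 0.416, 0.154 and 0.203, 2.70-fold and 2.05-fold lower, the latter under 2-fold with normexp, with quantile normalization and with median scaling.

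The partners of octamer-dependent transcription differed in tumour L2. Pou2f2, an octamer-binding factor, was at 0.882 signal units in the p53-only tumour, 0.217 in tumour L2 and 0.522 in tumour L3. Pou2af1, the coactivator it recruits, was at 17.7, 8.69 and 18.5. In tumour L3 Pou2af1 differed by 0.061 log2 units, and by -0.45 with quantile normalization and -0.30 in the authors' deposited value table. Spib, an ETS family factor, was at 18.8, 4.55 and 16.4, and Ikzf3, which encodes the factor Aiolos, at 3.91, 1.45 and 3.03. Spib and Pou2af1 were 4.14-fold and 2.04-fold lower in tumour L2. Ikzf3 was 2.69-fold lower there by its brightest probe, while its other 2 probes differed by -0.30 and -0.07 log2 units.

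Some of the 33 genes hold letters near their start that match the sites of these factors, and the stretches are shown because the factor and the gene were measured in the same tumours. Windows of 300 bases around the start, mostly upstream and 30 in all, were found for 25 of the 33 genes in RefSeq (GRCm38.p6). They were searched on both strands. The octamer ATGCAAAT was present in 2 of 30 (6.67%), beside 1.74% of 32851 promoters of all genes. The palindromic site of EBF factors was present in 1 of 30 (3.33%), beside 0.904% of all promoters. The ETS site GAGGAAGT, of the kind bound by SPIB, was present in 3 of 30 (10.0%, Fcrl1, Cd72 and Cd37), beside 3.20%. No window held more than 1 of these 3 motifs. Capitals mark the match, which is a description of letters and not of binding. The octamers lie in Vpreb3 (chr10:75948229-75948288, plus strand) and Blnk (chr19:40994318-40994377, minus strand), and the EBF palindrome in Cd22 (chr7:30879044-30879103, minus strand), all upstream of the start.
Vpreb3: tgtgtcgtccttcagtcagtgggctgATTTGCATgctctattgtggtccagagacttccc
Blnk: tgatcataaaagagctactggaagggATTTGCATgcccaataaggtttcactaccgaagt
Cd22: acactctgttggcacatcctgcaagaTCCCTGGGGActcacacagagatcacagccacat
Vpreb3 and Blnk were 12.3-fold and 3.98-fold lower in tumour L2, and 1.11-fold and 1.62-fold lower in tumour L3, where the difference of Vpreb3 turned to 0.04 log2 units when arrays were scaled to their median. Cd22 was low in both, as was Ebf1. Fcrl1, Cd72 and Cd37, with the ETS site, were 13.7-fold, 1.44-fold and 1.74-fold lower in tumour L3, where Spib was 1.15-fold lower. A link between any site and the level of its gene was not tested.

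By this scaling the genes were grouped by cut-offs on their level in tumour L3. The differences ran on across the cut-offs, with Blk at -0.21 and Pik3ap1 at -0.33 log2 units, and Cd79a at -0.94 and Pax5 at -1.03. A set of 10, namely Cd22, Fcmr, Fcrl1, Cd40, Siglecg, Bank1, Ralgps2, Pax5, Ebf1 and Bach2, was low by at least 2-fold in both LSD1 tumours. Another 7, namely Ms4a1, Tnfrsf13c, Ly6d, Blk, Vpreb3, Spib and Pou2af1, were at least 2-fold lower in tumour L2 and within 0.25 log2 units of the p53-only tumour in tumour L3, where 1.27% of all tested genes were. The limit of 0.25 was chosen after the values were seen, and the set of 7 depends on the scaling. In the authors' deposited value table all 33 genes were lower in tumour L3 by 0.29 log2 units or more, outside that limit. The other 16 genes lay between these sets or, like Lyn, Cd83 and Fcrl5, within 2-fold in both tumours. By role, 14 of 16 surface genes were at least 2-fold lower in tumour L2 and 5 in tumour L3. The numbers were 9 and 2 of 10 signalling and other intracellular genes, and 7 and 3 of 7 transcription factors. Over all tested genes the share was 11.5% in each tumour. The 2 signalling genes in tumour L3 were Bank1 and Ralgps2. By its other probes Ralgps2 was under 2-fold there (-0.54 and -0.43 log2 units).

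Several of these genes were measured by more than 1 probe. Of the 33 genes, 16 had several probes, with 21 probes besides the brightest ones, and 14 of these were above background on all 3 arrays. All 14 gave the same sign as the brightest probe in each LSD1 tumour. Of 18 such probes above background in the p53-only tumour and tumour L3, whatever their signal in tumour L2, 16 gave the same sign in tumour L3. The exceptions were the second probes of Cd180 (0.42 against -0.37 log2 units) and Tnfrsf13c (0.31 against -0.15). In 9 of 14 the difference was within 0.5 log2 units of it in both tumours. The largest departures were those of Ikzf3 and Ralgps2 given above. The other 17 genes had 1 probe.

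**Figure D3:**
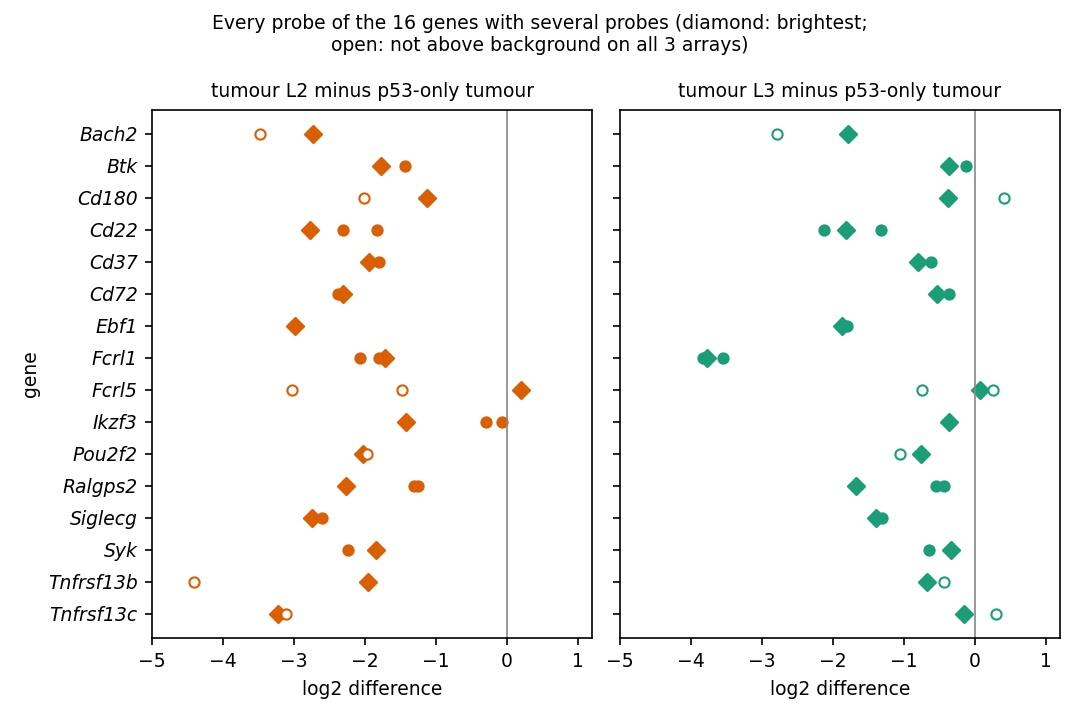
Log2 difference from the p53-only tumour for every probe of the 16 genes with more than 1 probe, in tumour L2 (left) and tumour L3 (right). Diamonds are the brightest probes, and open circles are probes not above background on all 3 arrays. The 3 Fcrl1 probes lie together, while the other 2 Fcrl5 probes, both open, lie apart from the brightest one.

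Other genes of the receptor pathway had smaller median log2 differences than the 33 genes, -0.62 in tumour L2 and -0.37 in tumour L3. Of 28 such genes, 11 were at least 2-fold lower in tumour L2, 8 in tumour L3 and 6 in both. The shares over all tested genes were 11.5%, 11.5% and 5.38%. In tumour L3 the count, 8 of 28, was close in share to the 10 of 33. A single gene was higher in tumour L3 (Gab1, at least 2.32-fold), where 15.2% of all genes were. Cr2, which encodes a complement receptor, was at 39.5 signal units in the p53-only tumour, 2.03 in tumour L2 and 0.242 in tumour L3. Its order of the 3 tumours was thus that of Fcrl1. Cr2 is made by follicular dendritic cells as well as B cells. None of the 28 passed limma's threshold (lowest adjusted p = 0.967, 3 with an unadjusted p under 0.05).

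Genes of mature B cell subsets were low in both LSD1 tumours. Over all tested genes the share at least 2-fold lower was 11.5% in each tumour and 5.38% in both. Of 13 genes of follicular and marginal zone B cells, 12 were at least 2-fold lower in tumour L2, 10 in tumour L3 and 10 in both, with medians of -2.07 and -2.06 log2 units. Fcer2a, which encodes the follicular marker CD23, was at 7.59 signal units in the p53-only tumour and 1.94 in tumour L2, and was not well above background in tumour L3. The difference in tumour L3 was at least 111-fold, counted against the lowest level well above background on that array. Cr2, which also belongs to this list, and Fcer2a were thus far lower in tumour L3. In that tumour Ms4a1 and Ly6d were close to the p53 level by this scaling, while Cd79a was 1.92-fold lower. Some genes of this list, such as Ccr7, are also expressed by T cells.

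Germinal centre and plasma cell genes had lower medians in tumour L2 than in tumour L3, as the 33 genes did. Over all tested genes, 11.5% were at least 2-fold lower in each LSD1 tumour and 15.2% at least 2-fold higher in tumour L3. Of 8 germinal centre genes, 4 were at least 2-fold lower in tumour L2 and 3 in tumour L3 (medians -1.65 and -0.77). Another 2 were at least 2-fold higher in tumour L3, Rgs13 by 2.19-fold and Mef2b, a transcription factor not above background in the p53-only tumour, by at least 3.12-fold. Bcl6, the germinal centre repressor, was at 5.87, 1.56 and 1.67 signal units in the p53-only tumour and tumours L2 and L3. Of 9 plasma cell genes, 8 were at least 2-fold lower in tumour L2 and 3 in tumour L3 (medians -2.16 and -0.43). Jchain, the joining chain of secreted antibody, was at 76.2, 15.7 and 7.99. Sdc1, which encodes the plasma cell marker CD138, was at 0.442 in the p53-only tumour and 0.177 in tumour L3 and was at least 6.40-fold lower in tumour L2, where it was not well above background. Its mean log2 difference between the genotypes was -2.08 by the brightest of 3 probes and -0.61 by the mean of all 3. Tnfrsf17, the third receptor for BAFF and APRIL, was at 0.344 and 0.158 and was at least 4.98-fold lower in tumour L2, again not well above background there.

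Genes of early B lineage cells gave no common pattern. Of 11 such genes 8 were tested, and Rag1, Rag2 and Igll1 were not above background on any array by their brightest probe. Of the 8, 2 were at least 2-fold lower in tumour L2 and 5 in tumour L3 (medians -0.77 and -1.64), beside 11.5% of all genes in each. Il7r and Lef1 were at least 2-fold higher in tumour L2, where 11.7% of all genes were. Il7r was at 8.63, 36.0 and 1.84 signal units in the p53-only tumour, L2 and L3, and Lef1 at 6.52, 14.4 and 1.36. T cell markers were likewise higher in tumour L2 and lower in tumour L3 by median (1.81 and -1.33). The part of T cells in these 2 genes was not tested. Dntt, the template-independent polymerase, was at 0.988, 0.138 and 0.247 signal units, and Bst1 at 0.968, 0.374 and 0.287.

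**Figure D4:**
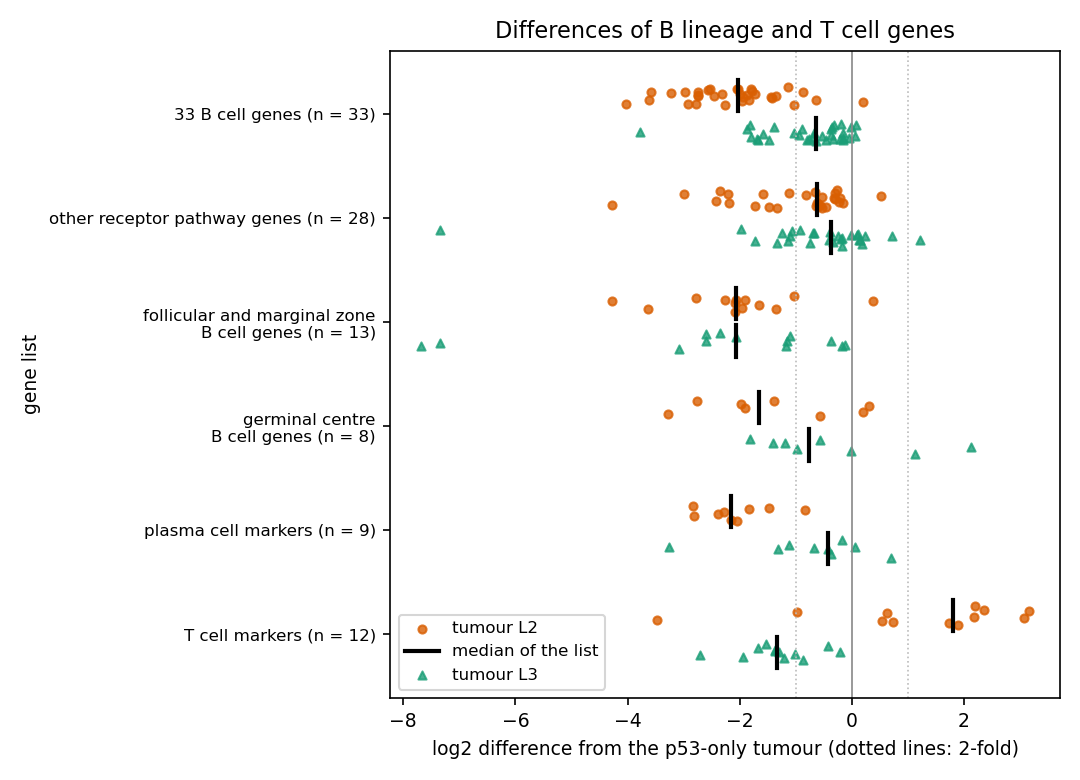
Log2 difference from the p53-only tumour for the 33 genes, for 4 further lists of B lineage genes and for T cell markers, with 1 point per gene for tumour L2 (circles) and tumour L3 (triangles) and a black bar for each median. The 33 genes have medians of -2.02 and -0.64, and the T cell markers 1.81 and -1.33.

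Markers of other cell types also differed between the tumours. For the counts that follow, 11.5% of all tested genes were at least 2-fold lower in each LSD1 tumour. The shares at least 2-fold higher were 11.7% in tumour L2, 15.2% in tumour L3 and 3.48% in both. T cell markers had a summed signal of 96.7 units in the p53-only tumour, 263 in tumour L2 and 52.5 in tumour L3, with 7 of 12 at least 2-fold higher in tumour L2 and 9 of 12 at least 2-fold lower in tumour L3. Cd28 was at 1.88, 16.9 and 0.589, while Cd8a was at 1.48, 0.134 and 0.388. Erythroid markers summed to 222, 167 and 480 units, with 7 of 8 at least 2-fold higher in tumour L3, Klf1 by 4.09-fold and Tfrc by 3.13-fold. Neutrophil markers summed to 145, 292 and 272 units, with 6 of 8 at least 2-fold higher in both, among them Ctsg by 3.74-fold and 5.30-fold and Prtn3 by 2.65-fold and 3.92-fold. The 33 B cell genes summed to 526, 127 and 383 units, of which Cd79b gave 108, 18.7 and 69.4. Each sum follows the brightest probes of its list. It can be read across the tumours within a list, not from list to list, and does not measure cell content. Macrophage markers summed to 137, 119 and 151 units, of which Csf1r gave 67.9, 55.8 and 64.5. By size, 3 of the 9 tested were at least 2-fold lower and 1 higher in tumour L2. In tumour L3, 1 was lower and 1 higher. Adgre1 was at 9.46, 3.11 and 8.91 and Cd14 at 2.02, 0.819 and 1.28. Lyz2 was at 10.4, 22.1 and 2.01, 2.13-fold higher in tumour L2 and 5.17-fold lower in tumour L3. C1qb was 2.33-fold higher in tumour L3. Dendritic cell markers summed to 170, 143 and 131 units, of which Siglech alone gave 155, 137 and 124. The medians of the 8 dendritic cell markers were -1.79 and -0.79 log2 units. By measured values 4 were at least 2-fold lower in tumour L2, 3 in tumour L3 and 1, Zbtb46, higher there. Among the 4 was Xcr1, which was not well above background in tumour L2 and was lower there by at least 1.48-fold as a bound. Clec9a was 10.8-fold and 3.52-fold lower and Cd209a at least 17.7-fold and 17.8-fold lower. NK cell markers summed to 38.9, 25 and 17.7 units, of which Gzma gave 20.5, 20.6 and 4.40. The medians of the 8 NK cell markers were -1.90 and -1.53, with 5 at least 2-fold lower in tumour L2 and 4 in tumour L3, among them Klrd1 7.50-fold lower in L2 and 4.86-fold lower in L3 and Ncr1 lower by at least 4.50-fold and 4.54-fold. Of the markers tested, Trat1 among the T cell genes in tumour L3, Xcr1, Cd209a and Ncr1 in both LSD1 tumours, and no others, were not well above background. The part of these other cell types in the B cell gene differences was not tested. All 33 B cell genes were above background in every tumour, including Cd79a, Cd79b, Ms4a1 and Pax5.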

How the data were processed

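Total RNA of 3 splenic tumours was labelled with Cy3 and scanned, 1 array each. Each array was deposited as Agilent Feature Extraction 11.5.1.1 output, per the submitters' processing notes. The intensity used was the processed signal, background-subtracted and detrended within the array by that software, per the file headers. The authors' value table held the same intensity multiplied by 1 factor per array (1.06, 0.779 and 0.902), whose basis is not stated, with column medians of 64.2, 54.2 and 43.5.

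Signals were divided by each array's 75th percentile (608, 712 and 554) and log2-transformed. Spots flagged as outliers were dropped, and repeated spots of a probe averaged. Probes were named through RefSeq transcripts (25126 of 47837 identifiers matched, leaving 23611 of 56605 probes unnamed), and a gene was represented by its brightest probe. The array's design build is mm9, so its coordinates are not given. Genes well above background on 1 array or more were tested with limma 3.58.1 in R 4.3.3 (Benjamini-Hochberg adjustment). With 1 array against 2 this leaves 1 residual degree of freedom (3.27 with the prior) and assumes that the lone p53 array varies like the others. A call by size required at least 2-fold, with the brighter side well above background. "At least" marks a bound against the higher of the probe's own value and the lowest level that was well above background on its array. Precision is limited by having only 3 arrays.

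All 33 members are reported. Of each comparison list the 2 genes with the largest mean difference are named, with Cr2 added, except where a gene is not reported here, and other genes named were chosen after their values were seen. The members and lists were chosen with earlier results of these data known. The alternatives were normexp (offset 50, on median signals), quantile normalization, the authors' value table, median scaling, other filters on dim probes, the mean of all probes, slide as a block and each LSD1 tumour left out.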

Additional observations from a re-analysis of the deposited data

How the results depend on the processing

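The direction of the median of the 33 genes held under 7 alternatives that keep every array, ranging from -2.26 to -1.97 log2 units in tumour L2 and from -1.01 to -0.45 in tumour L3. limma called 0 genes under each of the 7. The number of genes low by at least 2-fold in both LSD1 tumours was 10, between 9 and 13 under 6 alternatives, and 16 in the authors' value table. With those values, 17 genes were at least 2-fold lower in tumour L3 (a count added after seeing the data). Without either LSD1 tumour the count rests on the other one and ranged from 10 to 30, and with slide as a block, where tumour L3 is compared with the p53-only tumour, it was 10. Of the 10 genes, 8 met the limit under all 7 alternatives, the exceptions being Pax5 and Ralgps2. Over 56 named genes, 546 of 554 recomputed mean differences kept their sign and 8 did not. Many of these values could not differ. The filters on dim probes reuse the main values, which also holds for the median and the 2-fold counts above. The mean of all probes changes nothing for a gene with 1 probe, and slide as a block repeats the value without tumour L2. A mean over both tumours can also hide a turn in 1 of them, as in tumour L3 for 5 of the 33 genes with median scaling. Fcrl5 turned to -0.10 (quantile), -0.15 (authors' table) and -0.79 (mean of all probes). Pou2af1 turned to 0.061 and Cd28 to -1.68, each with slide as a block and without tumour L2, and Klf1 to -0.16 without tumour L3. Leaving out either LSD1 tumour, the range was -1.03 to 0.061 for Pou2af1, -1.68 to 3.17 for Cd28 and -0.16 to 2.03 for Klf1. No paired analysis was possible because the p53-only tumour carries no replicate number in the labels. A fit without 1 LSD1 tumour or with slide as a block has no residual degree of freedom, so it gave values with no test. Of the 33 genes none was at background, so signal over background limits the other lists and the dimmer probes.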
